A study of Mus musculus with 5 samples.

Results

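The plexin receptors are a family of 9 mouse genes (Plxna1, Plxna2, Plxna3, Plxna4, Plxnb1, Plxnb2, Plxnb3, Plxnc1 and Plxnd1), out of 24062 genes counted in mitral valve leaflets with and without the cilium gene Ift88. They were found by symbol, and all 9 had enough reads to be tested. The family was selected on the values of one member, Plxnb1, in the comparison of knockout (KO) with wild type (WT). The KO against WT values of Plxnb1 are therefore a description, and those of the other plexins come from the same contrast and are likewise given as levels and fold changes without a test of the family.

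RNA-seq of leaflet tissue gave 2 libraries titled WT and 3 titled KO, and the titles define the groups. Every mouse carried NfatC1Cre, a Cre recombinase driven from the Nfatc1 gene, which is active in the endocardial lineage. The genotype fields assign Ift88f/f to the WT libraries and Ift88+/+ to the KO libraries, which runs against the titles. The level of Ift88 was 7.54 and 19.8 CPM (reads of the gene relative to all reads counted, after scaling) in WT, while the KO libraries had 3.0, 3.92 and 0.409, which follows the titles. The labels leave out age, sex, strain background and whether libraries came from separate animals, so the error terms measure only the spread between these libraries, which may be technical. Total counts ran from 23361414 to 53789026 per library. Cells outside the endocardial lineage would keep an intact Ift88 gene in such a model.

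Plexins are single-pass membrane receptors for semaphorins, guidance proteins first known from growing axons. An extracellular sema domain binds the ligand, and a cytoplasmic GTPase-activating domain acts on small GTPases of the Ras and Rap kind, which loosens integrin adhesion and reshapes the actin cytoskeleton. Class A plexins mostly hear secreted class 3 semaphorins through a neuropilin co-receptor, class B plexins bind class 4 semaphorins directly and couple to the small GTPase RhoA, plexin C1 binds semaphorin 7A, and plexin D1 binds semaphorin 3E and, with neuropilins, other class 3 members. In the heart, plexin D1 in the endothelium and plexin A2 in neural crest cells are known for their part in the formation of the outflow tract and its valves.

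The class B genes are shown first. Plxnb1 and Plxnb2 were both higher in KO, at very different WT levels, and Plxnb3 followed neither group. The reference sequences around their starts, from RefSeq on GRCm38.p6, cover 250 bases before and 50 after the start and are printed 5′ to 3′ on the strand of the gene. They lie at chr9:109095186-109095485 (plus strand) for Plxnb1, chr15:89180739-89181038 (minus strand) for Plxnb2 and chrX:73756853-73757152 (plus strand) for Plxnb3. Capitals mark the GC box, a binding motif of Sp and Klf factors, searched as GGGCGG on both strands with overlaps counted.
Plxnb1: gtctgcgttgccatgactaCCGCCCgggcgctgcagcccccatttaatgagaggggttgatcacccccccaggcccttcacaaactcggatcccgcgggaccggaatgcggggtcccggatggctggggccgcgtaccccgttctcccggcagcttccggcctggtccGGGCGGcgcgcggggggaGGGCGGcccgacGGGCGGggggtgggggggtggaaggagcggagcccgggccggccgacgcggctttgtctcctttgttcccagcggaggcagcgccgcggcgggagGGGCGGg
Plxnb2: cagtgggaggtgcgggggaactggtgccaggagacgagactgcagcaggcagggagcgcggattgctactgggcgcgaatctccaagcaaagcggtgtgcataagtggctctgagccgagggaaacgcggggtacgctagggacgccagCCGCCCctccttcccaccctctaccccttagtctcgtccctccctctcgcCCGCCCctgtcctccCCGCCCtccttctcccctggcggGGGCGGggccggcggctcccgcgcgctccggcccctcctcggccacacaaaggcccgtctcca
Plxnb3: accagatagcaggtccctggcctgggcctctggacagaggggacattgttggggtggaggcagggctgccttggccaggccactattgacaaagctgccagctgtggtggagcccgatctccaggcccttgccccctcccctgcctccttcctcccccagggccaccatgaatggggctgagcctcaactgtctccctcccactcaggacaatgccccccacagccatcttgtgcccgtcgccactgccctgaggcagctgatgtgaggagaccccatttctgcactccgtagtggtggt

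The Plxnb1 window held 5 GC boxes and 36 CpG dinucleotides, and the printed Plxnb2 window held 4 and 27. A second Plxnb2 window, at chr15:89173902-89174201, held 3 and 15. The Plxnb3 window held 0 GC boxes and 4 CpG. Outside class B, the Plxnc1 window held 4 and 30, Plxna2 2 and 25, Plxnd1 2 and 23, and Plxna3 2 and 18. At least 1 GC box was found in 35.7% of all 32851 RefSeq promoter windows of this length, and the median window had 7 CpG. As many CpG as in Plxnb1 were found in 6.23% of windows. The motif GACCACCCA, the core letters bound by Gli factors of Hedgehog signalling, was found in none of the 8 plexin windows searched (7 genes, with 2 windows for Plxnb2, and none for Plxna1 or Plxna4) and in 0.253% of all windows. These are matches of letters, not measured binding.

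Plxnb1, a receptor of semaphorin 4D that couples to RhoA, was close to absent from WT. WT replicate 1 held 20 reads of it, or 0.761 CPM, with a 95% exact Poisson interval of 0.465 to 1.18. WT replicate 2 held 10 reads, or 0.173 CPM (0.0831 to 0.319). In KO replicates 1, 2 and 3 it stood at 16.1, 11.1 and 18.4 CPM, from 511, 469 and 450 reads. Every KO level lay above both WT levels. The intervals cover counting error only, not the spread between libraries, and those of the 2 WT libraries did not overlap each other. The WT mean was 0.467 ± 0.416 (SD, n = 2), the KO mean 15.2 ± 3.77 (SD, n = 3) and their ratio 32.6. The fitted log2 fold change was 5.04 (SE 1.065). This is the value for which the family was picked. Plxnb1 lies on chromosome 9 at 109095389 to 109119917 (GRCm38), plus strand, and codes for 2119 residues in its longest model.

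Plxnb2, which binds semaphorin 4C and other class 4 members and is the broadly expressed plexin of the class, was the most abundant plexin in every library. Its WT levels were 27.4 and 25.1 CPM and hardly differed from each other. In KO replicates 1, 2 and 3 it had 93.9, 87.5 and 168 CPM. Both WT libraries were below all 3 KO libraries, and KO replicate 3 stood apart at the top. The WT mean was 26.2 ± 1.61 (SD, n = 2) and the KO mean 117 ± 45.0 (SD, n = 3), with a log2 fold change of 2.15 (SE 0.45). Plxnb2 lies on the minus strand of chromosome 15 at 89155549 to 89180788.

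Plxnb3, a receptor of semaphorin 5A best known from glia, followed neither group. It had 2.78 CPM in WT replicate 1 and 5.12 and 3.47 in KO replicates 1 and 2. WT replicate 2 and KO replicate 3 had 0 reads, which allow up to 0.052 and 0.123 CPM (3 reads). The 3 libraries with reads carry one code in their titles, whose meaning the labels do not state. Among the 17148 genes with a read, 49 were at 0 in WT replicate 2 and KO replicate 3 and at 1 CPM or more in the other 3 libraries. For the other 9 pairs of libraries that number lay between 3 and 51. No fold change between WT and KO describes such a gene, and its fitted value of 1.05 had an SE of 2.85. Plxnb3 lies on the X chromosome at 73757090 to 73772514.

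The 4 class A genes, which encode the receptors that pair with neuropilins, each had all 3 KO libraries above both WT libraries. This order was found for 13.5% of all genes tested. For transcripts of 6000 to 8000 nt and of 8000 nt or more, it was found for 31.2% and 39.1%. With the trend with transcript length removed, Plxna3 alone of the 4 kept it. Plxna1, a receptor part for semaphorin 3A, showed the smallest separation, with WT at 3.08 and 9.83 CPM against 12.5, 10.3 and 13.8 for the KO libraries. WT replicate 2 and KO replicate 2 were so close that their Poisson intervals overlapped (9.04 to 10.7 and 9.39 to 11.3). Its log2 fold change of 0.92 (SE 0.77) dropped to 0.28 when WT replicate 1 was left out and reached 1.98 when WT replicate 2 was.

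Plxna2, a receptor of semaphorins 3 and 6, stood at 7.12 and 11.9 CPM in the WT libraries. The KO libraries had 20.2, 27.5 and 27.6. KO replicates 2 and 3 were nearly equal, and the log2 fold change was 1.40 (SE 0.53). Plxna3, an X-linked member that works with neuropilin 2, was low, with 1.56 and 0.572 CPM in WT from 41 and 33 reads. In KO it had 3.35, 4.34 and 6.06 CPM, and its log2 fold change was 2.10 (SE 1.30). The groups of both genes did not overlap.

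Plxna4, which mediates repulsion by semaphorins 3A and 6A, was even in WT and uneven in KO. Its WT levels were 11.3 and 9.6 CPM. KO replicate 1 was only slightly above them at 16.4 CPM, while KO replicates 2 and 3 reached 59.8 and 51.6. The highest KO library was 3.65 times the lowest, the widest KO range of the 8 plexins that had reads in every KO library. The log2 fold change was 2.03 (SE 0.67), and 2.38 without KO replicate 1. The gene spans 32144268 to 32588192 on chromosome 6 (minus strand).

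Plxnc1, the receptor of semaphorin 7A found on leukocytes and melanocytes, was set apart by WT replicate 1. It had 6 reads there, or 0.228 CPM (0.0838 to 0.497), against 7.64 CPM in the other WT library. The KO libraries held 11.1, 22.0 and 11.4 CPM. The 2 WT libraries thus differed 33.5-fold and the KO libraries 1.98-fold. The log2 fold change of 1.91 (SE 1.37) came to 0.92 with WT replicate 1 left out and to 5.995 with WT replicate 2 left out. The summed level of 6 melanocyte markers was 90.2 CPM in WT replicate 1 and 89.2 in WT replicate 2, and 89.1 to 257 in KO. That of 7 macrophage markers was 200 and 312 CPM in WT, of which Lyz2 made up 135 and 118, and 162 to 293 in KO. Ptprc, the pan-leukocyte marker, measured 0.0381 and 3.54 CPM in WT, with 5.72, 3.18 and 0 for the KO libraries. The 6 mast cell markers summed to 23.6 and 153 CPM there and to 64.4 to 95.5 in KO. The part of these cells in the Plxnc1 values was not tested.

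Plxnd1, the endothelial receptor of semaphorin 3E, overlapped between the groups. WT stood at 5.56 and 12.9 CPM, KO at 22.0, 25.7 and 8.88. KO replicate 3 lay below WT replicate 2, and the log2 fold change was 1.03 (SE 0.74), or 1.37 without KO replicate 3, 0.52 without WT replicate 1 and 1.76 without WT replicate 2. The summed level of 10 valve endothelial markers was 331 CPM in WT replicate 1 and 2943 in WT replicate 2. In KO it was 1812, 2858 and 2009 CPM, so that sum overlapped between the groups. The sum was lowest in WT replicate 1 and highest in WT replicate 2. Plxnd1 was lowest in WT replicate 1 and highest in KO replicate 2. The part of endothelial cells in the Plxnd1 values was not tested. In bulk tissue, fewer cells of a type and less RNA per cell cannot be told apart.

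**Figure D1:**
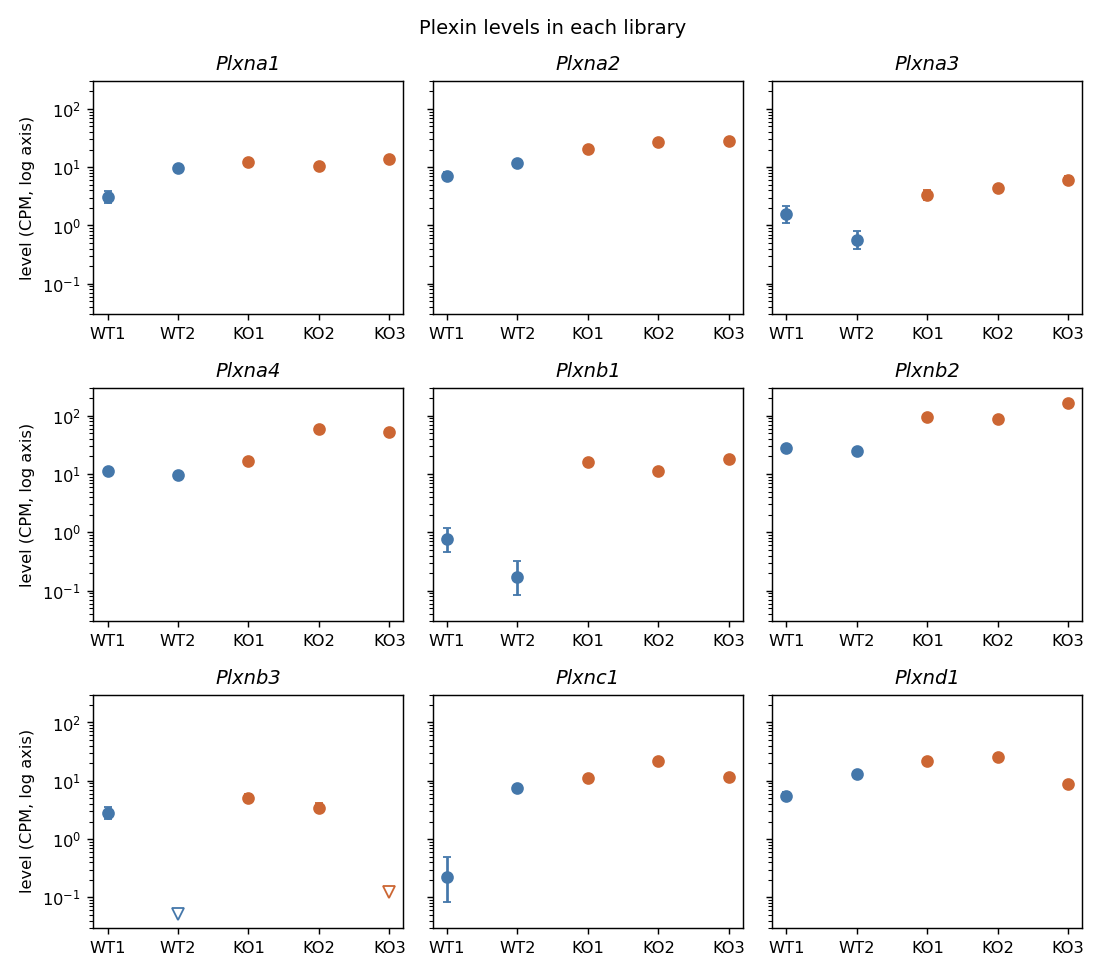
Plexin levels by library; the vertical log axis gives CPM after TMM scaling. Blue points are WT and orange points KO libraries, bars are 95% exact Poisson intervals (counting error only), and open triangles mark libraries with 0 reads, drawn at the CPM of 3 reads. Plxnb1 lies between 0.173 and 0.761 CPM in WT and between 11.1 and 18.4 in KO, while Plxnb3 has reads in WT replicate 1 and KO replicates 1 and 2 alone.

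Of the 9 plexins, 7 (all but Plxnb3 and Plxnd1) had every KO library above both WT libraries, and 0 had every KO library below. The same order was found for 13.5% of the 14244 genes tested. All 9 had a positive log2 fold change, as did 49.4% of all genes tested. For transcripts of 6000 to 8000 nt and of 8000 nt or more, that share was 79.2% and 83.7%. The median of the plexins was 1.91, beside a median of -0.01 over all genes. Since the family was picked from this contrast, nothing is read from that difference. In the edgeR quasi-likelihood test 0 plexins and 0% of all genes passed an adjusted p of 0.05 (smallest adjusted p = 0.81), although 832 genes had an unadjusted p under 0.05. DESeq2 called 219 genes on the same counts (1.6% of 13682 with an adjusted p), and limma-voom called 0. Among the 219 were Plxnb1 (adjusted p = 4.22e-05) and Plxnb2 (0.00643). For both genes edgeR gave adjusted p = 0.81 and limma-voom 0.703. The family was picked for the Plxnb1 pattern in this contrast, so the adjusted p of Plxnb1 is a description and no support. The authors' deposited table calls the same 2 plexins higher, with adjusted p = 4.84e-05 for Plxnb1 and 0.00701 for Plxnb2. It calls 1.36% of 12872 genes higher. The submitters name DESeq2 as their tool and the libraries are the same, so this is no second source. The other 7 plexins have adjusted p between 0.198 and 0.961 in the authors' deposited table.

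Transcript length moved with these differences. The longest models of the 9 plexins run from 6217 nt (Plxnb3) to 12877 nt (Plxna4). Over all genes tested, the median log2 fold change was -0.59 for transcripts under 1000 nt, 0.73 for the 1197 genes from 6000 to 8000 nt and 1.07 for the 791 genes of 8000 nt or more. In these last classes 31.2% and 39.1% of genes had the KO libraries all above WT. At the lengths of the plexins, the fitted trend of each library had a median of -0.51 and -0.49 (log2) in WT replicates 1 and 2 and 0.26, 0.59 and 0.10 in KO replicates 1, 2 and 3.

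**Figure D2:**
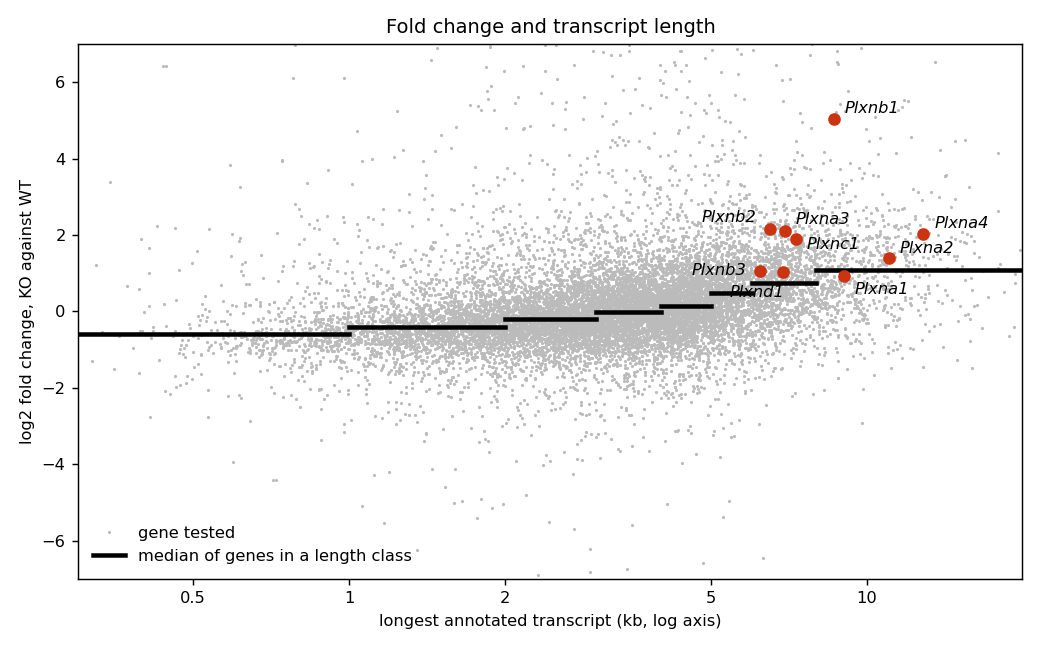
Log2 fold change of KO against WT for every gene tested (grey) against the length of its longest annotated transcript in kb, on a log axis, with plexins in red and black bars for the median of a length class. The bars climb from -0.59 for the shortest class to 1.07 for the longest. Plxna1, Plxna2, Plxnb3 and Plxnd1 sit near the bars, and Plxnb1 far above them. The few genes outside the axes are not drawn.

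With that trend removed from each library, 3 plexins still had all KO libraries above both WT libraries, an order found for 10.6% of all genes. These were Plxnb1, Plxnb2 and Plxna3. The adjusted Plxnb1 levels were 1.12 and 0.265 CPM in WT, with 12.8, 6.79 and 17.4 for KO. Those of Plxnb2 were 37.8 and 33.0 in WT and 81.9, 62.0 and 154 in KO. Both genes were less far apart between the groups than before, and neither overlapped.

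The log2 fold changes became 4.18 (SE 1.07) for Plxnb1, 1.49 (SE 0.49) for Plxnb2, 1.36 for Plxna3, 1.05 for Plxnc1 and 0.81 for Plxna4. Those of Plxna2 and Plxnd1 became 0.26 and 0.23, and that of Plxna1 turned to -0.045, near the median of all genes (-0.03). The median of the family was 0.81. For Plxna1 the adjusted level of WT replicate 2 (15.4 CPM) lay above all KO libraries. For Plxna2, Plxna4, Plxnc1 and Plxnd1 it lay within their range (20.7, 18.1, 10.7 and 17.5 CPM).

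**Figure D3:**
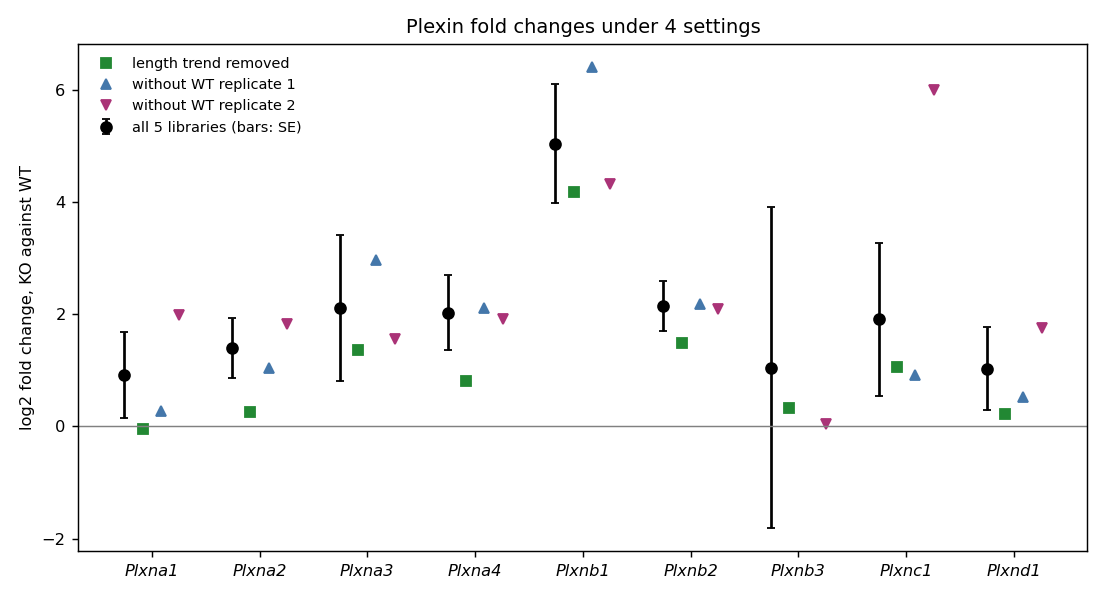
Log2 fold change of each plexin, KO against WT, with all 5 libraries (black, bars are SE), with the trend of each library with transcript length removed (green), and without WT replicate 1 or 2 (blue, purple). Plxnb1 keeps at least 4.18 in all of these and Plxnb2 at least 1.49, while Plxna1 moves between -0.045 and 1.98. The value of Plxnb3 without WT replicate 1 is left out, since WT then has no read.

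The 3 libraries with the shared title code (WT replicate 1, KO replicates 1 and 2) gave log2 fold changes of 4.15 for Plxnb1 and 1.73 for Plxnb2. Within them all 9 plexins were higher in both KO libraries than in WT, as were 41.2% of genes. The other 2 libraries carry a code each, so no second such comparison exists.

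The tissue makeup of the libraries also differed. The summed level of 10 cardiomyocyte markers was 56255 CPM in WT replicate 1, 102 in WT replicate 2 and 26723 to 33605 in KO, with no defining marker at 0. That of 10 interstitial cell markers was 2800 and 7797 CPM in WT and 8039 to 11559 in KO. Of the 10 marker lists, the interstitial one alone had all KO libraries above WT. No endothelial or interstitial marker was at 0 in any library, and of the 5 blood markers all 4 haemoglobin genes were at 0 in each, while Alas2 was at 92.7 and 2.6 CPM in WT, with 34.7, 8.28 and 0 for KO. The part of these cell types in the plexin values was not tested.

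Compared per length (CPM per kilobase of the longest transcript), the family was dominated by Plxnb2. It made up 54.9% and 39.4% of the summed level of all plexins in WT and 53.9%, 43.5% and 65.1% in KO. These ranges overlap, so the share of Plxnb2 did not separate the groups. The sum did, with 7.67 and 9.79 CPM per kilobase in WT and 26.8, 30.9 and 39.8 in KO. Division by length does not remove the length trend of each library, and no sum with that trend removed was computed.

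Behind Plxnb2 the order in WT by mean share was Plxnd1 (14.8%), Plxna2 (9.71%), Plxna4 (9.51%), Plxna1 (7.78%), Plxnc1 (5.55%), Plxnb3 (2.91%), Plxna3 (1.89%) and Plxnb1 (0.676%). Below the step from Plxnb2 to Plxnd1, the shares of each pair of neighbours overlapped between the 2 libraries. In KO the order was Plxna4 (9.94%), Plxnd1 (9.04%), Plxna2 (7.06%), Plxnc1 (6.44%), Plxnb1 (5.48%), Plxna1 (4.23%), Plxna3 (2.0%) and Plxnb3 (1.62%). There the step from Plxna1 to Plxna3 was also free of overlap, at 3.7 to 5.15% against 1.8 to 2.19%. Plxnb1 thus held 0.205% and 1.15% of the family in WT and 4.13 to 6.96% in KO.

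**Figure D4:**
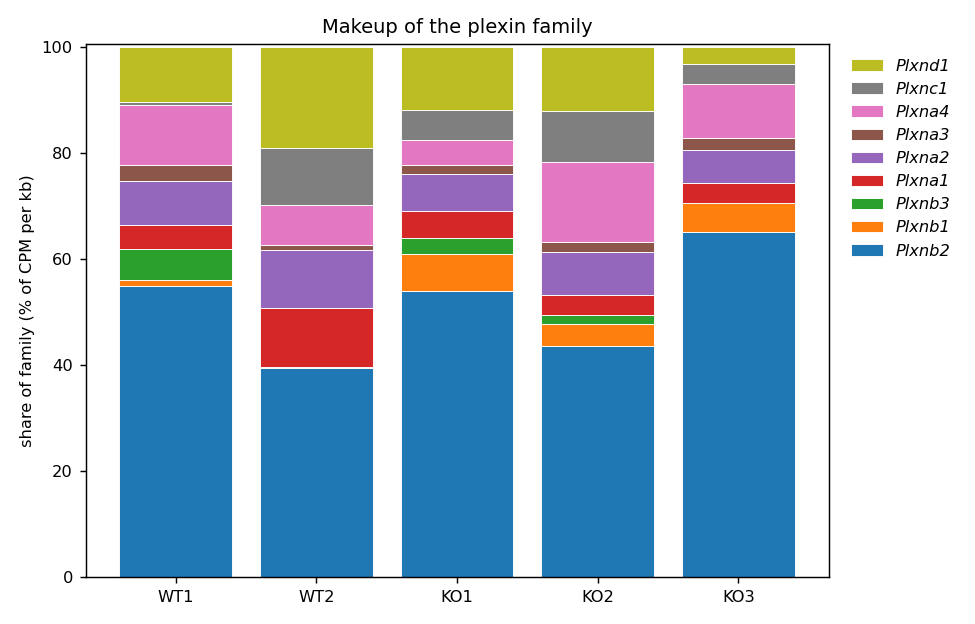
Share of each plexin in the summed level of the family (percent of CPM per kilobase of the longest transcript) in each library, one stacked bar per library. Plxnb2 is the largest block in all 5, between 39.4 and 65.1%. Plxnb1 is a sliver in WT, at most 1.15%, and between 4.13 and 6.96% in KO.

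The sequences of the plexins share little at the length of a read. In the GENCODE M21 models, 0% of the 50-base words of each plexin's longest transcript occurred in another plexin, on either strand. Words shared with any other gene made up 7.19% in Plxna1, 2.47% in Plxnb1 and under 1% in the other 7. The kit does not mark the strand, and 10.7% of the exon bases of Plxna1 overlap an antisense gene, Gm26811, so reads of the 2 cannot be told apart there.

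By the root mean square difference of centred log2(CPM + 1) profiles over the 5 libraries, the plexin nearest to Plxnb1 was Plxnb2 (0.741), and the farthest was Plxnb3 (1.78). Plxna1 and Plxna2 were the nearest pair of the family (0.362). Across 13201 genes with a mean of at least 1 CPM, Plxnb2 was only the 61st nearest to Plxnb1. The 5 nearest were Tnc (tenascin C, 0.17), Hivep1 (a zinc finger factor, 0.303), Ereg (epiregulin, 0.325), Cbl (a ubiquitin ligase, 0.361) and Adamts19 (a metalloprotease, 0.413). Tnc, for example, measured 7.23 and 3.92 CPM in WT against 66.7, 66.2 and 91.1 in KO, and Cbl 1.71 and 0 against 12.5, 9.81 and 22.4. Their longest transcripts run from 4128 to 11372 nt.

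The rest of the pathway was read from 6 lists of 63 genes, of which 58 were tested and 0 passed. Of these, 44 had a positive log2 fold change (75.9%, against 49.4% of all genes). In 14 of the 58 every KO library was above both WT libraries, against 13.5% of all genes. In 2 of the 58 every KO library was below, against 11.1% of all genes. The median log2 fold change was 0.79, and 0.39 with the length trend removed. No gene passed, so the values below are descriptions of levels and fold changes.

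Semaphorins are the ligands. Class 3 is the one that acts through neuropilins. There 5 of 6 genes tested were positive (49.4% of all genes), and 1 was higher in every KO library (13.5% of all genes). That gene was Sema3c, which guides cardiac neural crest cells, with WT at 17.1 and 5.15 CPM and KO at 20.1, 68.0 and 56.2. Sema3a, the axon repellent, stood at a log2 fold change of 0.87 (SE 0.66), and Sema3f at 0.65 (SE 0.996). Sema3e, the ligand of plexin D1, was at 0.0381 and 0 CPM in WT, at 2.31 and 1.67 in KO replicates 1 and 2 and at 0 in KO replicate 3.

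Class 4 holds the ligands of the plexin B receptors. Sema4d, which binds plexin B1, ran from 7.31 to 23.5 CPM in WT and from 15.9 to 27.3 in KO, so its groups overlapped. Sema4c, which binds plexin B2, ran from 10.6 to 25.8 CPM in WT and from 10.9 to 26.2 in KO and overlapped as well. Neither ligand separated the groups as its receptor gene did. Sema4a was scarce, with at most 0.0173 CPM in WT and 0.158, 1.18 and 2.91 in KO, and Sema4g did not exceed 0.967 CPM in any library. The class 4 median of 1.18 over 5 genes is the value of Sema4b, another low gene.

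In classes 5 to 7, Sema6d was at 26.9 and 19.7 CPM in WT, and KO was at 37.9, 50.2 and 30.7. Its log2 fold change was 0.77 (SE 0.44), and 0.044 after removal of the length trend. Sema6a overlapped between the groups (0.82, SE 1.007, and 0.063 after that removal). Sema6b was the 1 member of these classes with a negative value (-1.58, SE 1.14). Sema7a, the ligand of plexin C1, had too few reads to be tested.

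Of the 8 co-receptors tested, 7 were positive (49.4% of all genes) and 2 were higher in every KO library (13.5% of all genes). These 2 were Nrp1 and Itgb1. Nrp1 (neuropilin 1) was counted at 128 and 106 CPM in WT, below the 232, 181 and 229 of KO. Its log2 fold change of 0.87 (SE 0.32) was 0.83 after that removal, its longest model having 3645 nt. Itgb1, the integrin beta 1 chain that plexin signalling restrains, also had no overlap between the groups, with a log2 fold change of 0.34 (SE 0.35). Mst1r, a receptor kinase that joins plexin B1, had no read in WT, and KO had 0.821, 2.67 and 0 CPM.

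Of the 15 cytoplasmic partners, 11 were positive, 4 were higher in every KO library and 1, Gipc1, an adaptor of plexin D1, was lower (-0.67, SE 0.32, and -0.29 without the length trend). Over all genes tested, 49.4% were positive, 13.5% were higher in every KO library and 11.1% were lower. Mical2 and Mical3 encode enzymes that oxidise actin downstream of plexins. Mical2 was even in WT (86.0 and 92.6 CPM) and higher in KO (198, 299 and 240). Its log2 fold change of 1.46 (SE 0.35) became 0.72 once the length trend was taken out. Mical3 had 1.79 (SE 0.63), which became 0.74. Rac1, a GTPase that binds plexin B1, ranged from 105 to 555 CPM in KO and overlapped with WT. Arhgef11 and Arhgef12, the guanine nucleotide exchange factors that dock on plexin B, showed 1.28 (SE 1.05) and 0.71 (SE 0.67) on the log2 scale, and KO replicate 3 was below both WT libraries for each. Without the length trend these became 0.50 for Arhgef11 and -0.55 for Arhgef12, a turn in direction for the second. Gipc1, Arhgef11, Arhgef12, Sema4b and Cdk5 fall outside the naming rule and were chosen after their values were seen.

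Of the 18 downstream GTPases and effectors tested, 11 were positive, 5 were higher in every KO library and 1, Cdk5, was lower (-0.62, SE 0.38, and -0.34 without the length trend). The shares of all genes with these 3 results were 49.4%, 13.5% and 11.1%. Dpysl3, a collapsin response mediator protein, was at 250 and 221 CPM in WT, below the 597, 456 and 581 of KO. Its log2 fold change was 1.21 (SE 0.34), or 0.76 without the length trend. Gsk3b, the kinase that acts on such mediators, had 1.56 (SE 0.46), which became 0.61. Rhoa and Rap1b, the most abundant of the list, had -0.30 (SE 0.34) and -0.86 (SE 0.58), which became -0.66 and -0.74 without the length trend. Their groups overlapped.

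**Figure D5:**
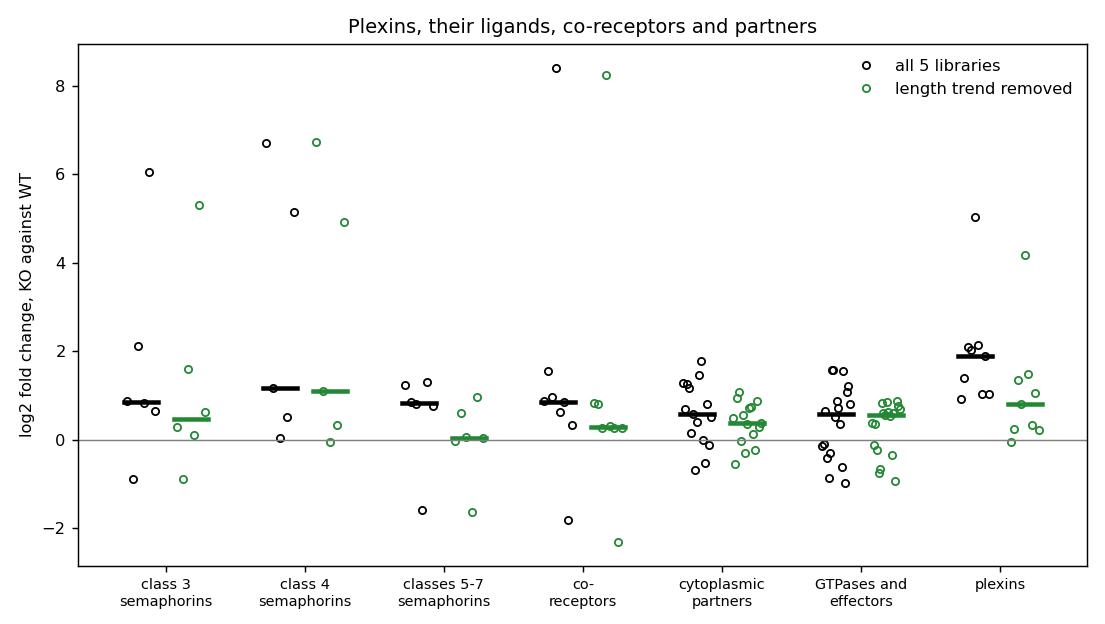
Log2 fold change of KO against WT for the genes of 6 pathway lists and the plexins, with all 5 libraries (black) and with the length trend removed (green). Circles are genes and bars are list medians. The plexin median drops from 1.91 to 0.81, and the median of all pathway genes from 0.79 to 0.39. Values above 5 in the lists belong to genes with few or no reads in WT.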

How the data were processed

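RNA of mitral leaflets was extracted with RNeasy columns, treated with DNase and made into libraries with SMART-Seq v4, per the labels' protocols. Per the submitters' processing notes the tools were FastQC 0.11.5, cutadapt 1.11, HTSeq and DESeq2, on mm10 (GRCm38). No source used here gives the aligner or the annotation. The deposited table has raw counts for 5 libraries (23361414 to 53789026 in total). Per the file headers it also holds the authors' mean signal of normalized counts, their log2 fold change with its standard error, the test score, and p-values with their adjusted form.

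Counts were fitted with edgeR 4.0.16 (TMM scaling, filterByExpr, two-sided quasi-likelihood F test, Benjamini-Hochberg adjustment over 14244 genes). SE is the log2 fold change divided by the root of F. Levels are TMM-scaled CPM, with 95% exact Poisson intervals and a floor of 3 reads, which cover counting error only. Lengths are from GENCODE M21 (GRCm38), which matched 22750 symbols directly and 935 through an older symbol. The length trend was a loess fit per library (span 0.3), centred and removed by offsets. Alternatives were median-of-ratios scaling, other filters, DESeq2 1.42.0, limma-voom 3.58.1, each library left out, and other lengths. The labels give no replicate numbers, so samples were numbered in accession order and not paired. The members and lists were chosen with earlier results of these data known. Genes named are the plexins, Ift88, the 5 genes nearest to Plxnb1, and in each list the 2 genes with the smallest p and the 2 most abundant.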

Additional observations from a re-analysis of the deposited data

How the results depend on the processing

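With each library's trend with transcript length removed, the count of plexins with every KO library above both WT libraries went from 7 to 3, their median log2 fold change from 1.91 to 0.809, and the log2 fold change of Plxna1 from 0.92 to -0.045. This alternative alters values by construction for long genes. The number of genes called by edgeR was 0 to 245 with a library left out, the 245 without WT replicate 1, when the fit holds 1 WT library and contains no spread between WT libraries, and 0 plexins were among them (Plxnb1 had adjusted p = 0.0555). DESeq2 called 219, and the cause of the difference was not tested. With a library left out, 7 to 9 plexins were higher in every KO library, as were 16.9 to 30.7% of all genes, and the median of the family was 1.51 to 2.11. Other scaling or filters left each plexin within 1 SE of its value. In alternatives added after the data were seen, 14 pathway genes higher in every KO library became 11 after removal of the trend, 15 to 33 when a library was left out (33 of 62 tested without WT replicate 2, beside 30.7% of all genes) and 43 of 62 among libraries of one title code (beside 41.2%). Fewer libraries make this order easier to meet. No paired analysis was possible because the labels give no replicate numbers that tie a WT to a KO library; a block on the title code would rest on the 3 libraries of the shared code, where the median of the family was 1.76. Plxnc1 moved furthest among plexins with reads in both groups, to 5.995 without WT replicate 2 and 6.155 in the shared code. Shares computed from coding length moved by more than the replicate SD for 5 of 18 values, and from the median coding transcript, which counts partial models, for 9 of 18. On that last scale the mean KO share was 33.5% for Plxnb1 and 29.9% for Plxnb2, so the first place of Plxnb2 in KO rests on the full-length models. Few reads limit Plxnb1 and Plxna3 in WT and Plxnc1 in WT replicate 1.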

Other observations

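Plxna4os1, the 1 antisense transcript of a plexin that the deposited table lists, lies within Plxna4 on the other strand without sharing exon bases in GENCODE M21. The deposited counts give it 67 and 116 reads in WT and 41, 14 and 52 in KO. In TMM-scaled CPM this is 2.55 and 2.01 against 1.3, 0.33 and 2.13. Because the kit does not mark the strand, these reads cannot be told apart from reads of Plxna4 introns. Plxna4 stood higher in KO than in WT, and its antisense transcript did not.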
